A study of Homo sapiens with 18 samples.

Results

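The effect of the first, WWOX, transduction was followed within RT-112 cells, a human bladder cancer line. It was read from 6 of the 18 libraries of a CAGE-seq study, the other libraries being 6 from HT-1376 and 6 from CAL-29 cells, which are bladder cancer lines too. CAGE-seq sequences the first bases of capped RNA, and a gene's level was given in CPM, tag counts scaled to the library total, 1 read being worth 0.0526 to 0.0603 CPM in the RT-112 libraries. Each library carries 2 letters. The first letter is the first transduction, either a blank lentiviral vector (K) or WWOX (W), both in pLenti-GIII-CMV-GFP-2A-Puro with puromycin selection. The second letter is the second transduction in pLKO-Neo-CMV with G418 selection, which is a blank vector (K), AP-2α (A) or AP-2γ (C). Thus KK, KA and KC were set against WK, WA and WC, each W library being paired with the K library of the same second transduction, which gave 3 libraries a side and 3 pairs. All 6 cultures were grown in RPMI-1640 and had gone through 2 transductions and 2 selections, the controls included. Because the second transduction was applied to cells already carrying K or W, the 3 W libraries share 1 first transduction, and p-values measure the spread between second transductions and not between separate WWOX transductions. The cells were a line grown in bulk, so fewer cells of a kind and less RNA per cell cannot be told apart.

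WWOX, the WW domain-containing oxidoreductase, is a tumour suppressor whose gene spans the common fragile site FRA16D and is often reduced in cancers. Its WW domains bind PPxY motifs of partner proteins, among them AP-2γ, p73, c-Jun and ERBB4, and such binding is known to hold several of these factors in the cytoplasm. AP-2α (TFAP2A) and AP-2γ (TFAP2C) are transcription factors that bind GC-rich elements of the form GCCNNNGGC and act in epithelial differentiation, including that of the urothelium.

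The transduced genes were examined first. WWOX (chr16:78099400-79212667, plus strand, hg38) stood at 26.0, 23.5 and 25.9 CPM in KK, KA and KC and at 22.3, 19.0 and 18.5 CPM in WK, WA and WC. The W-labelled libraries thus held less WWOX signal than their partners, at 0.858, 0.806 and 0.713 of the partner's CPM, and the groups did not overlap (limma adjusted p = 0.321). This goes against the label. The read-out counts tags assigned to the WWOX gene. Whether transcripts that start in the vector's CMV promoter are counted there was not tested, so the label was not checked with this tag. In HT-1376 cells the WWOX log2 difference of W minus K was -0.06, with mixed signs over the pairs. In CAL-29 cells it was 1.05 and positive in each pair (limma adjusted p = 0.107). The CAL-29 value includes the library labelled KC, which resembles HT-1376 libraries. TFAP2C was at 58.0, 49.4 and 264 CPM in KK, KA and KC and at 56.2, 180 and 143 CPM in WK, WA and WC. It was therefore high in the library labelled KC and in both libraries labelled WA and WC, with more TFAP2C in WA, labelled AP-2α, than in WC, labelled AP-2γ. The members of the pair WA and KA thus differed 3.64-fold in TFAP2C as well, while WC stood at 0.541 of its partner, and whether the second transductions of these libraries are as labelled was not tested. A difference within the pair WA and KA or WC and KC is therefore one between libraries unlike in TFAP2C too. TFAP2A was at 18.01, 46.8 and 19.0 CPM in the K libraries and 20.3, 25.3 and 21.2 CPM in the W libraries, the largest value being that of KA. Directions below are accordingly those of W-labelled against K-labelled libraries, and the counts of most gene groups are also given without the pair WA and KA.

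The libraries held 15636025 to 17958572 reads on genes. Each carried all 9 genes that marked RT-112 in its KK library and none of the 47 HT-1376 or 68 CAL-29 marker genes at 10% or more of its level in its own line. Urothelial epithelium markers summed to 21823 to 22754 CPM in K and 21450 to 27208 CPM in W, led by keratins 7 and 19, while the uroplakin UPK3A was at 0 in all 6. Fibroblast markers summed to 15.5 to 18.6 and 17.4 to 20.3 CPM with COL1A2 at 0, the only immune marker in the table (CD68) was at 6.58 to 11.8 and 10.8 to 24.1 CPM, and the only endothelial one (CDH5) at 0.33 to 1.55 and 0.05 to 0.34 CPM. WA and WC stood apart from the other libraries. Their log2 levels correlated at r = 0.985 with each other over the 9267 genes tested and at 0.955 to 0.968 with the rest, whereas WK was closest to KK (r = 0.986). The differences of the pairs likewise correlated at 0.665 between A and C but at 0.191 and 0.174 between K and the other two. These correlations run over genes and carry no test.

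Of 16575 genes, 9267 reached 5 CPM in at least 1 of the 6 libraries and were tested on log2(CPM + 0.5) with limma, the second transduction being a block. None passed an adjusted p of 0.05, the smallest being 0.158, which was shared by 133 genes. At an unadjusted p under 0.05 there were 707 higher and 907 lower genes in W, 7.63% and 9.79% of those tested. edgeR called 4 genes, DESeq2 351 and limma-voom 0 when run on the reads recovered from the CPM values. In all 3 pairs 1760 genes were higher in W, 19% of those tested, and 1984 were lower, 21.4%, which made 3744 genes (40.4%) with 1 direction. The 3 W values lay above the 3 K values for 1008 genes (10.9%) and below them for 1231 (13.3%). The pairs did not weigh alike. Among the 3744 genes the largest difference was that of WC in 1790, of WA in 1422 and of WK in 532, and 3042 further genes had one sign in A and C and the other sign in K. Without the pair WK and KK the limma fit called 845 genes, 325 higher and 520 lower, without WA and KA it called 0, and without WC and KC it called 5. With only 3 pairs an exact sign-flip permutation test of a single gene cannot go below p = 0.25.

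The genes highest and lowest in W were taken by the smallest of their 3 pair differences, among those with at least 20 CPM throughout the higher group. As no gene was called, the 15 named in each direction did not pass the test, and each has an adjusted p of 0.158 in limma. The choice was by value, so their sizes are a description. The smallest pair difference was 0.67 on the log2 scale for the last of the 15 higher genes and 0.66 for the next one, and 0.71 and 0.70 on the lower side.

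Among the higher genes, C3 (chr19:6677704-6730562), the central complement component, stood at 24.9, 14 and 20.6 CPM in KK, KA and KC and at 73.0, 36.4 and 52.2 CPM in WK, WA and WC. CDKN1A (chr6:36676460-36687337), the p21 inhibitor of cyclin-dependent kinases, was at 84.4, 89.0 and 75.1 CPM and at 180, 165 and 154 CPM. NOTCH1 (chr9:136494433-136546048), a receptor of the Notch pathway, was at 22.3, 21.6 and 21.9 CPM and at 42.6, 40.6 and 42.1 CPM. For all these genes every W library lay above every K library, and for NOTCH1 and CDKN1A the 3 pairs differed by nearly the same amount, at 0.90 to 0.93 and 0.89 to 1.09 on the log2 scale. The mean folds were 2.64 for C3, 2.0 for CDKN1A and 1.89 for NOTCH1, with log2 differences of 1.40 ± 0.15, 1.00 ± 0.13 and 0.92 ± 0.14 (SE, n = 3 pairs). MIR4674, annotated beside the NOTCH1 start, had nearly the same values, at 22.2, 21.6 and 21.9 CPM and at 42.5, 40.6 and 42.0 CPM, and cannot be told apart from it.

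AQP3, a water and glycerol channel of epithelia, was at 56.3, 38.4 and 28.2 CPM in K and at 123, 238 and 137 CPM in W, a mean fold of 3.99 (log2 difference 2.0 ± 0.28, SE). CCL22, a chemokine that attracts regulatory T cells, was at 12.7, 7.84 and 9.03 CPM in K and 26.3, 24.3 and 27.6 CPM in W. Neither gene's groups overlapped, and AQP3 was highest in WA. The remaining higher genes were RASA4 and FAM83G, the phospholipase PLAAT3, the endoribonuclease ZC3H12A that degrades inflammatory mRNAs, the kinesin light chain KLC3, the lysosomal protease CTSF, the lipid transporter ABCA2, the matrix protein ADAMTSL4 and OAF, with mean folds of 1.67 to 2.51. RASA4 has near-identical copies on chromosome 7, so its reads may be shared with them.

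Among the lower genes, NASP (chr1:45583846-45618904), a chaperone of histone H3 and H4, was at 28.6, 32.2 and 36.6 CPM in KK, KA and KC and at 9.37, 5.31 and 6.03 CPM in WK, WA and WC. PIN4, a parvulin-type prolyl isomerase, was at 38.8, 39.7 and 35.1 CPM and at 19.7, 18.9 and 18.2 CPM. AGR2, a disulfide isomerase of mucus-secreting epithelia, was at 26.5, 62.3 and 52.7 CPM and at 14.5, 12.7 and 10.6 CPM. NASP showed the widest separation of the lower genes, with W at 0.220 of K (log2 difference -2.19 ± 0.23, SE, n = 3 pairs), AGR2 stood at 0.290 and PIN4 at 0.506, and the groups of all 3 were apart. The pseudogene PIN4P1 is a copy of PIN4 and may share its reads.

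The proteasome recurred among these 15, through its 20S core subunits PSMA3 and PSMA2 and its assembly factor POMP. PSMA3 was at 23.1, 43.4 and 23.2 CPM in K and at 9.97, 15.1 and 12.1 CPM in W. PSMA2 was at 48.4, 61.1 and 45.9 CPM in K and at 27.6, 30.1 and 24.2 CPM in W. In both genes KA was the highest library, and every W value was below every K value. ATP5F1E, the epsilon subunit of ATP synthase, was the most abundant of the lower genes, at 985, 1349 and 809 CPM in K and 602, 754 and 489 CPM in W (fold 0.592). The others were the calmodulin gene CALM2, the RNA-binding LSM3, the mitoribosomal MRPS33, the nucleosome-binding HMGN3, the histone gene H2BC6, the chaperonin-like MKKS and BTBD16, with W at 0.416 to 0.552 of K. BTBD16 was the only one of the 15 whose groups overlapped.

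**Figure D1:**
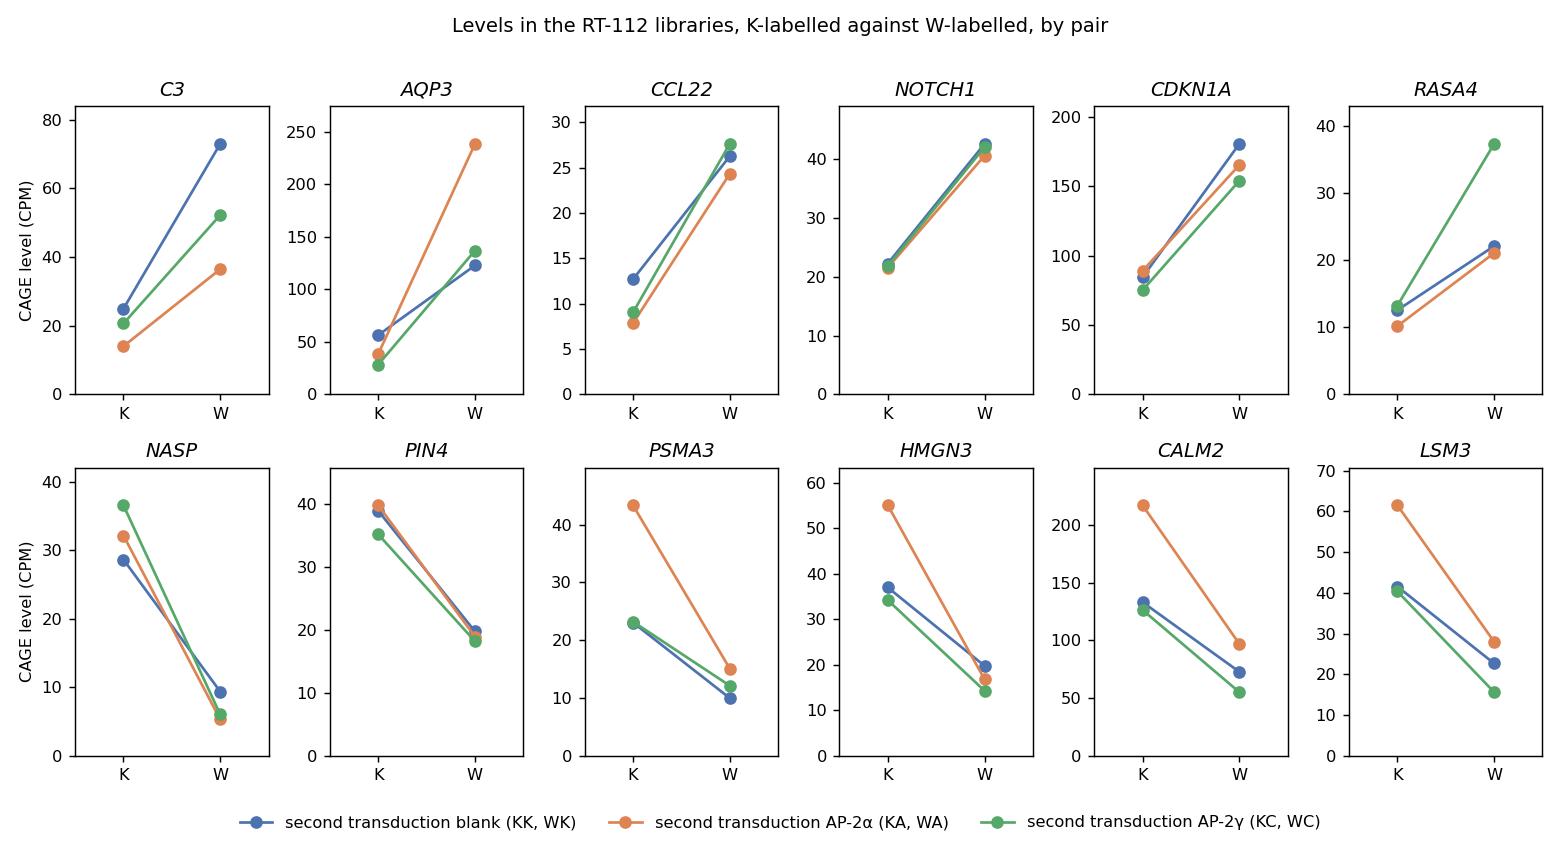
CAGE levels in CPM (vertical axis, from 0, own scale per gene) of the 6 higher and 6 lower genes with the largest smallest-pair difference, leaving out MIR4674; each point is 1 library and each line joins the K-labelled and W-labelled library of 1 second transduction. All 3 lines slope upwards in the top row and downwards in the bottom row, and CALM2, PSMA3, HMGN3 and LSM3 were highest in the library labelled KA.

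Outside the rule for named genes, 2 further genes passed an adjusted p of 0.05 under several alternatives and were singled out after their values were seen. They did so together with NASP and C3. VASN, a membrane protein that binds TGF-β, was at 2.16, 5.84 and 3.63 CPM in K and at 13.2, 17.8 and 14.2 CPM in W. BAALC was at 1.61, 0.58 and 0.86 CPM in K and at 9.53, 5.98 and 4.52 CPM in W. Both genes were under the 20 CPM asked of a named gene, and both had groups that were apart. BAALC reached 5 CPM only in WK and WA, so it passed the filter through W libraries only. All 4 genes were called by edgeR (adjusted p = 0.0337 to 0.0375), after TMM scaling of the limma fit (0.0397) and after quantile normalization (0.022 to 0.0489).

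The 250 bases before the annotated start of 3 of the named genes are printed to show how unlike these promoters are. They are among the first 2 of each direction whose window holds no annotated exon, taken from hg38 at the canonical GENCODE 44 start. Letters would be in capitals where a fixed motif was found on either strand, and these windows held none of the 5 motifs searched. AP-2 factors were represented by GCCNNNGGC. For AP-1 the letters were TGANTCA. The TATA box was written as TATAAA. An ETS site was CCGGAAG. The SP family was searched as GGGCGG.
CCL22 (chr16:57358533-57358782, plus strand): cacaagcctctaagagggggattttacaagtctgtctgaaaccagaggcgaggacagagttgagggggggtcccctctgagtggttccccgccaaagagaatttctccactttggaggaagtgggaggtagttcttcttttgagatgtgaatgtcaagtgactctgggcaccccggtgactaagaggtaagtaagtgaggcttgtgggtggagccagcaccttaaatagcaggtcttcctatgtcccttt
PSMA3 (chr14:58244593-58244842, plus strand): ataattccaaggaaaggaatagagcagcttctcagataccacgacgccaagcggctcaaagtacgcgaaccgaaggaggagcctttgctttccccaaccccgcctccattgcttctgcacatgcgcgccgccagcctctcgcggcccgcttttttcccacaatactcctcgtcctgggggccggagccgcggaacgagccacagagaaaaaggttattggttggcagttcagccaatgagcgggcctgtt
AGR2 (chr7:16805000-16805249, minus strand): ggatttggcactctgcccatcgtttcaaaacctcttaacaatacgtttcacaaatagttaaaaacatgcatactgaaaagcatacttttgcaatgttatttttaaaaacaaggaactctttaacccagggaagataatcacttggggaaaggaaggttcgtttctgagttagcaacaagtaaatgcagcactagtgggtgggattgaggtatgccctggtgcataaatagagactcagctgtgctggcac
The window before CCL22, higher in W, was 51.2% GC, and those before PSMA3 and AGR2, lower in W, were 57.6% and 40.4% GC.

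Over the whole set, genes were compared by the 300 bases from 250 before to 50 after the canonical start, which could be read for 9256 of the 9267 genes. Genes higher in all 3 pairs had GC-richer promoters, with a median of 69.7%, against 64.3% in genes lower in all 3 and 66.7% in all genes tested. In the quartile of genes with the lowest promoter GC content 14.2% were higher and 27.1% lower in 3 of 3 pairs, and in the quartile with the highest GC content 27.5% were higher and 13.2% lower. The larger share was thus that of the lower genes at one end of the range and that of the higher genes at the other. The AP-2 motif lay in 39.4% of the promoters of the higher genes, 30.5% of those of the lower genes and 34.6% of all promoters. The TATA motif, which holds no G or C, lay in 5.97%, 6.46% and 5.80%. The ETS motif went the other way, in 15.0%, 23.9% and 20.3%, while the SP motif was in 81.4%, 70.6% and 75.5% and the AP-1 motif in 4.32%, 3.48% and 3.88%. A match describes the letters only.

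Transcript length moved with the direction as well. The median spliced length of the canonical transcript was 2835 bases with 9 exons in the higher genes and 2232 bases with 6 exons in the lower genes, against 2774 bases and 8 exons in all. In the shortest quartile of genes (up to 1621 bases) 30.3% were lower in 3 of 3 pairs and 17.4% higher, and in the longest quartile (from 4560 bases) 15.9% were lower and 18.9% higher. Among the 953 genes in both the shortest and the lowest-GC quartiles, 34.3% were lower and 13.1% higher. The part of GC content and length in the results below was not tested, and their medians are given beside the larger groups.

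**Figure D2:**
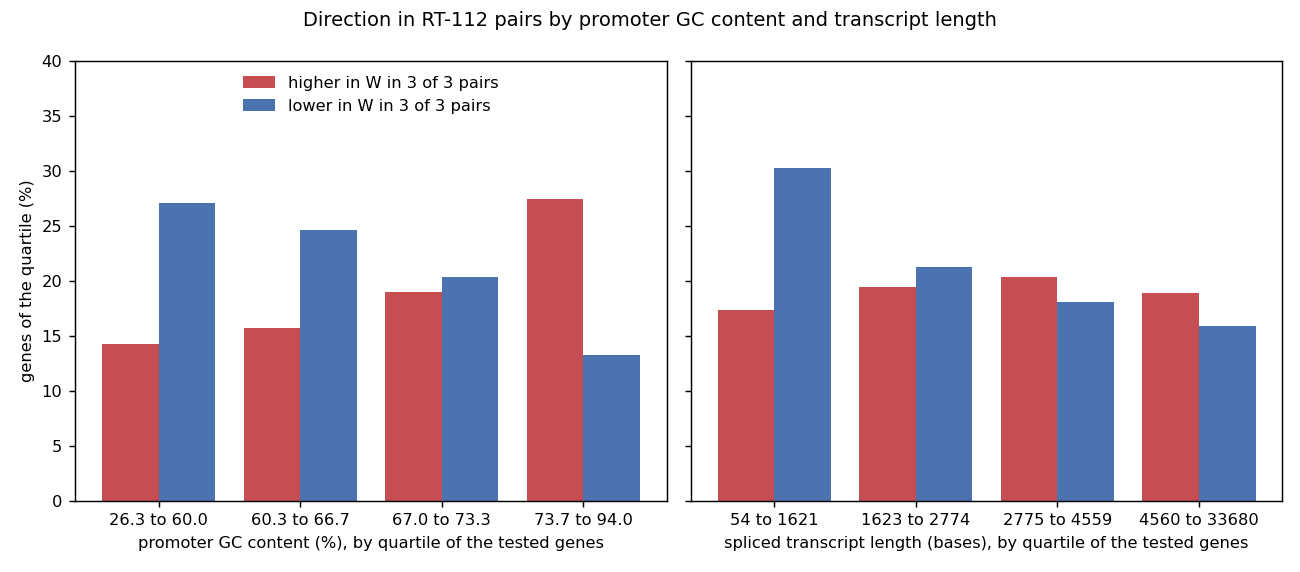
Share of genes (percent, vertical axis) with the same direction in 3 of 3 RT-112 pairs, by quartile of the tested genes in promoter GC content (left) and in spliced transcript length (right); red bars are genes higher in W and blue bars genes lower in W. The bars of the left panel cross from 14.2% higher and 27.1% lower to 27.5% higher and 13.2% lower.

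The gene groups were described by how many members had 1 direction in all 3 pairs, to be read against 19% higher and 21.4% lower among all genes, and by their median log2 difference, against -0.05 for all. Counts of members with groups that were apart are to be read against 10.9% above and 13.3% below among all genes. No member of any list was called by the limma fit. Where a pair is left out only 2 pairs have to match, and without WA and KA 2167 of all 9267 genes were higher and 2697 lower. Without WK and KK 2799 were higher and 3996 lower.

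Collagens, laminins and integrins build the extracellular matrix and the basement membrane and attach the cell to them. Of 30 members tested 22 were higher in W in 3 of 3 pairs and 0 lower (73.3% and 0%), and 14 had groups that were apart, with a median log2 difference of 0.45. By family these were 9 of 12 collagens, 5 of 7 laminins and 6 of 9 integrins, the others being the basement membrane proteoglycans AGRN and HSPG2. COL6A2 was at 3.93, 2.16 and 1.87 CPM in K and at 9.86, 15.7 and 17.4 CPM in W, and its log2 difference was 2.25 ± 0.34 (SE). COL7A1, the anchoring fibril collagen, was at 1.66, 2.95 and 0.75 CPM in K and at 16.1, 6.60 and 9.89 CPM in W, and its log2 difference was 2.35 ± 0.41 (SE). Both are low genes in which each W library exceeded each K library. Neither they nor COL1A1 reached 5 CPM in any K library, so these genes passed the filter through W libraries only. With no filter 23 of 38 members were higher and 0 lower. With 5 CPM asked in at least 3 of the 6 libraries 21 of 29 were higher and 0 lower. Chosen after the values were seen, the more abundant HSPG2 was at 31.5, 25.5 and 27.1 CPM in K and 45.6, 48.5 and 63.6 CPM in W. Of the 30 genes, 22 were higher and 2 lower without the pair WA and KA, and 24 and 0 without WC and KC. The members are long genes, with a median of 5856 bases and a promoter GC content of 72.3%, and among the 24 of them in the longest quartile 17 were higher (70.8%). COL1A1, also a fibroblast marker, was at 3.44 to 4.31 CPM in K and 6.75 to 7.60 CPM in W while COL1A2 was at 0.

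Target genes of p53, which respond to DNA damage and other stress, counted 14 higher and 0 lower of 23, with a median of 0.27. Besides CDKN1A above, the list holds GDF15, a stress-induced cytokine, at 12.1, 6.63 and 4.44 CPM in K and 16.99, 47.7 and 20.1 CPM in W. GDF15 was thus highest in WA, and its groups were apart. The other members were nearer to each other, as for MDM2, the ubiquitin ligase of p53, chosen after the values were seen, which was at 19.6 to 20.9 CPM in K and 21.6 to 25.4 CPM in W. Without WA and KA the list held 16 higher and 0 lower members, and after TMM scaling 12 and 1. Its members had a median length of 2512 bases and a promoter GC content of 67.0%.

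AP-1 subunits and immediate early genes, which follow growth factor and stress signals within minutes, counted 13 higher and 1 lower of 22, with a median of 0.43. JUNB was at 1852, 1251 and 1150 CPM in KK, KA and KC and at 2552, 3177 and 2856 CPM in WK, WA and WC. JUN was at 183, 179 and 143 CPM and at 242, 264 and 188 CPM. All W values of both genes were above all K values, with mean folds of 2.06 and 1.37. The pair WA and KA had the largest median, 0.73, against 0.30 and 0.21 in K and C, and without that pair 14 members were higher and 1 lower. The median length was 2430 bases and the promoter GC content 69.2%.

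TGF-β, activin and BMP genes counted 11 higher and 1 lower of 22 (median 0.26). ID1, a BMP-responsive inhibitor of helix-loop-helix factors, was at 220, 292 and 282 CPM in K and at 347, 638 and 653 CPM in W. TGFB1, the ligand TGF-β1, was at 103, 80.9 and 68.5 CPM in K and at 142, 132 and 124 CPM in W. The groups were apart for both genes. Basal and squamous genes of the urothelium counted 11 higher and 0 lower of 23 (median 0.24), 4 of them shared with the collagen, laminin and integrin list. The basement membrane collagen COL17A1 was at 18.3, 7.42 and 12.9 CPM in K and 35.5, 11.7 and 18.3 CPM in W, and the keratin KRT16 at 15.6, 13 and 9.67 CPM and 18.5, 27.6 and 13.3 CPM, with overlapping groups in both. The medians of the basal and squamous list by pair were 0.52 in K, 0.14 in A and 0.08 in C. Without WA and KA the TGF-β list counted 12 higher and 3 lower members and the basal and squamous list 12 and 0. Without WK and KK these lists counted 13 and 6, and 14 and 7. Their members had medians of 4276 bases and 71.5% GC and of 2977 bases and 59.0% GC.

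Proteases and their inhibitors at the cell surface counted 7 higher and 0 lower of 15, led by the urokinase PLAU at 19.2, 16.7 and 16.6 CPM in K and 29.4, 53.8 and 34.5 CPM in W. CXC chemokines, IL-1 and related cytokines counted 7 and 1 of 13, WNT pathway genes 9 and 2 of 22, EGF family ligands and their receptors 5 and 0 of 9, FGF receptors and ERK feedback genes 6 and 1 of 15, and YAP targets 9 and 1 of 25. Without WA and KA these 6 lists counted 7 and 0, 7 and 1, 11 and 4, 5 and 1, 6 and 2, and 10 and 3. Without WK and KK they counted 11 and 2, 8 and 3, 10 and 6, 5 and 2, 7 and 5, and 11 and 4. Matching in only 2 pairs, the YAP targets counted 14 and 3 without WC and KC. With 5 CPM asked in at least 3 of the 6 libraries, 9 chemokine and cytokine genes were left, 4 higher and 1 lower. WNT7A, a WNT ligand, was at 20.8, 15.1 and 15.7 CPM in K and 30.6, 33.6 and 29.8 CPM in W, with groups apart. HLA-B, an MHC class I heavy chain that shares sequence with other HLA genes, was at 42.9, 28.8 and 48.9 CPM in K and 52.3, 125 and 123 CPM in W, and its list of antigen presentation genes counted 5 and 2 of 15. There the pairs were unequal, with a median of -0.00 in K, 0.53 in A and 0.37 in C, and the list counted 11 and 3 without WK and KK and 5 and 2 without WA and KA.

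The respiratory chain and ATP synthase genes of the nucleus encode most subunits of oxidative phosphorylation. By share of lower members the proteasome list below was ahead (66.7%), but the respiratory chain list counted more of them than any other. Of 76 members tested 49 were lower in W in 3 of 3 pairs and 1 was higher (64.5% and 1.32%), 41 having groups that were apart below and 1 above, with a median log2 difference of -0.33. They were spread over the complexes, with 24 of 37 NDUF genes of complex I, 2 of 4 SDH genes of complex II, 6 of 8 UQC genes of complex III, 5 of 10 COX genes of complex IV and 11 of 15 ATP5 genes of ATP synthase. NDUFA5 was at 18.9, 26.4 and 14.9 CPM in K and at 9.37, 13.7 and 8.32 CPM in W. CYCS, the electron carrier cytochrome c, chosen after the values were seen, was at 108, 202 and 119 CPM in K and 67.9, 88.0 and 49.1 CPM in W, its groups apart. The pair differences of NDUFA5, an accessory subunit of complex I, were -0.97, -0.92 and -0.80, and its groups were apart too. Without WA and KA, 55 members were lower and 3 higher, without WC and KC 54 and 4, and after TMM scaling 43 and 0. The members are short genes, with a median of 830.5 bases and a promoter GC content of 60.7%. In the shortest quartile of genes 38 of its 57 members were lower (66.7%, against 30.3% of all genes in that quartile), and of its 19 longer members 11 were lower (57.9%).

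The proteasome degrades ubiquitin-tagged proteins, and its list was drawn up after its members had been seen among the lower genes, so its count supports nothing by itself. Of 36 subunits and assembly factors 24 were lower in 3 of 3 pairs and 1 higher, the median being -0.56. By pair the median was -0.12 in K, -0.51 in A and -0.93 in C, against 0.04, -0.01 and -0.17 over all genes. All 7 PSMA genes of the outer 20S rings were lower, with log2 differences of -1.19 to -0.52, as were 5 of 7 PSMB, 5 of 6 PSMC and 4 of 11 PSMD genes. PSMB9, the immunoproteasome subunit induced by interferon, belongs to the antigen presentation list and was at 44.8, 27.1 and 36.2 CPM in K and 55.9, 68.3 and 89.3 CPM in W. Mitochondrial ribosomal proteins (36 lower and 3 higher of 75, median -0.31) and the LSm and Sm proteins of RNA processing (10 and 0 of 16, median -0.25) were likewise listed after the values were seen. Without WA and KA the proteasome counted 25 lower and 2 higher, the mitochondrial ribosomal proteins 40 and 5 and the LSm and Sm proteins 11 and 0. The lists had medians of 1476, 1218 and 1514 bases and a promoter GC content of 61.0%, 59.3% and 59.3%. The cytosolic ribosomal proteins, equally short with a median of 827 bases, counted 20 lower and 10 higher of 78, with a median of -0.06, and 26 and 11 without WA and KA, 33 and 29 without WK and KK and 21 and 18 without WC and KC. RPS7 was at 728, 1006 and 615 CPM in K and 410, 589 and 418 CPM in W, and RPL13A at 1954, 1707 and 1854 CPM and 3152, 4221 and 2768 CPM, so members of 1 complex had opposite directions.

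**Figure D3:**
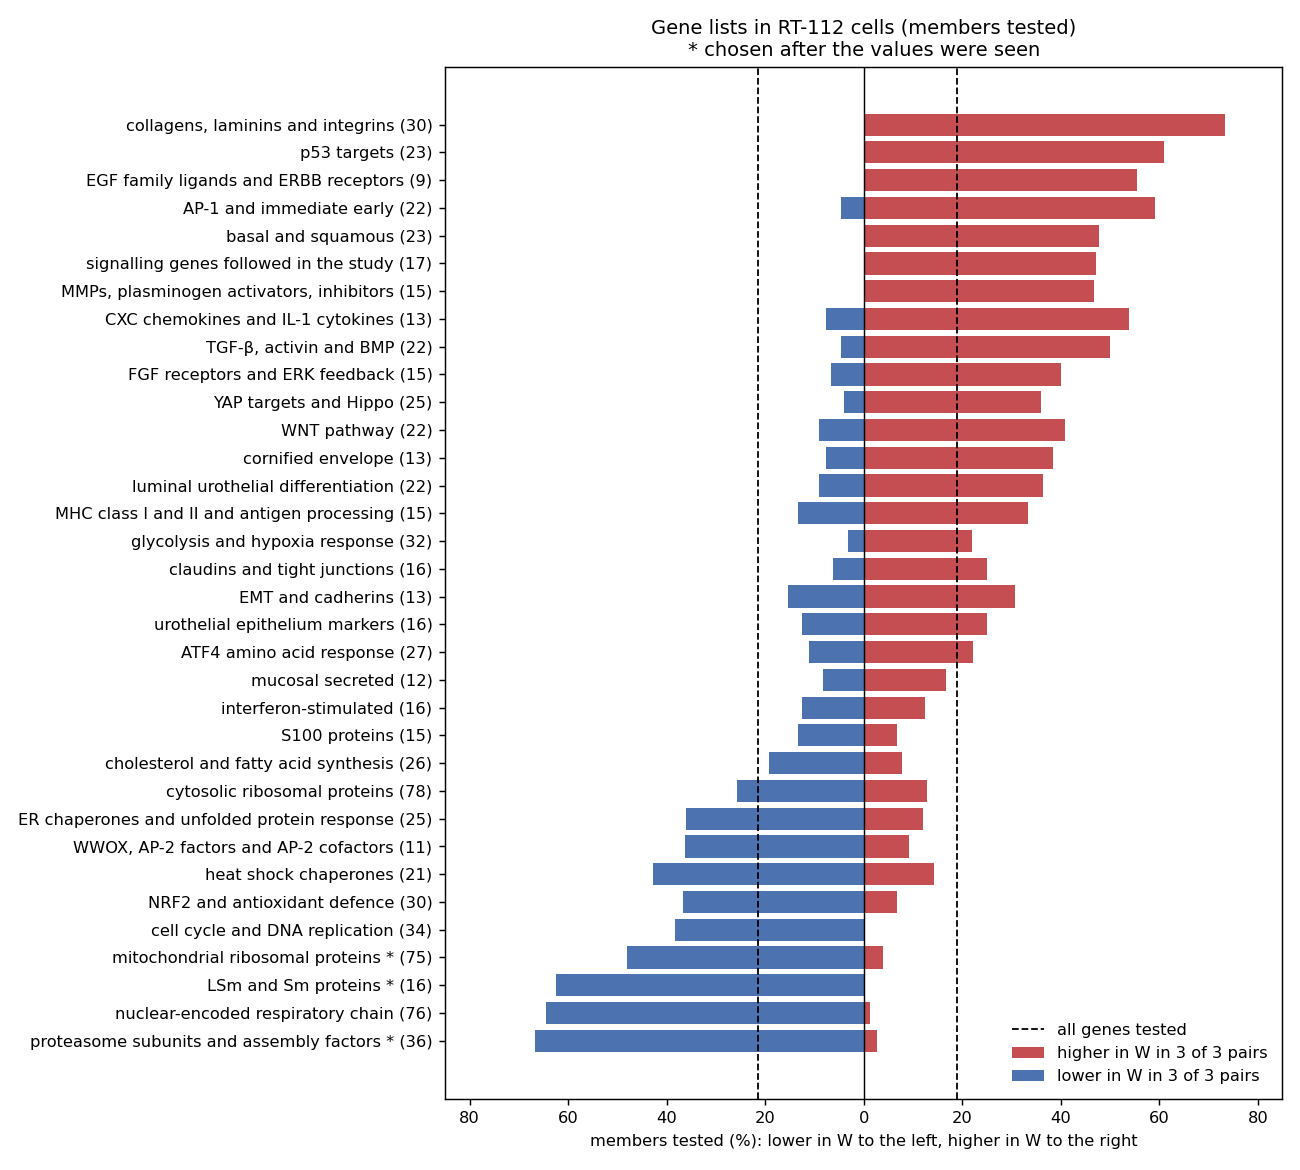
Share of tested members (percent) higher in W (red, to the right) and lower in W (blue, to the left) in 3 of 3 RT-112 pairs, for each list with at least 9 members tested, the number in parentheses; dashed lines give the shares over all 9267 genes, 19% and 21.4%. Collagens, laminins and integrins lie at 73.3% higher and the respiratory chain at 64.5% lower, and lists with a star were chosen after the values were seen.

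Cell cycle and DNA replication genes counted 13 lower and 0 higher of 34, with a median of -0.36, and their pairs differed in size. The median was 0.00 in K, -0.45 in A and -0.59 in C. UHRF1, which maintains DNA methylation at replication, was at 67.9, 68.0 and 66.6 CPM in K and at 50.5, 37.1 and 31.7 CPM in W. CENPF, a kinetochore protein, was at 5.26, 6.84 and 8.28 CPM in K and 4.14, 4.53 and 5.43 CPM in W. PCNA, the sliding clamp of replication, chosen after the values were seen, was at 46.2, 65.9 and 61.0 CPM in K and 44, 23.3 and 18.5 CPM in W. UHRF1 and PCNA had groups apart and CENPF did not. For PCNA the difference was -0.07 in the pair WK and KK and -1.48 and -1.70 in the others. Without the pair WA and KA the list counted 13 lower and 1 higher, and without WC and KC 14 and 0. Without WK and KK it counted 30 lower and 2 higher with a median of -0.55, where 3996 of the 9267 genes were lower and 2799 higher in both pairs. Its members had a median of 2719 bases and a promoter GC content of 65.0%.

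Genes of NRF2 and antioxidant defence counted 11 lower and 2 higher of 30 (median -0.13). The medians of the pairs differed in sign, at -0.20 in K, 0.06 in A and -0.25 in C, and without WA and KA the list counted 17 lower and 2 higher, with a median of -0.34. Thioredoxin (TXN), a reductant of protein disulfides, was at 1787, 2133 and 1725 CPM in K and at 1169, 1440 and 973 CPM in W, a mean fold of 0.629. GCLM, the modifier subunit of glutathione synthesis, was at 11.03, 13.9 and 12.8 CPM in K and 8.66, 9.95 and 6.33 CPM in W. Both had groups apart. Heat shock chaperones counted 9 lower and 3 higher of 21, with a median of -0.61 in the pair WC and KC and -0.02 and -0.06 in K and A. Chaperones of the endoplasmic reticulum and unfolded protein response genes counted 9 lower and 3 higher of 25. Without WA and KA these lists counted 11 lower and 3 higher and 12 and 4, and the endoplasmic reticulum list counted 14 and 4 without WK and KK.

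**Figure D4:**
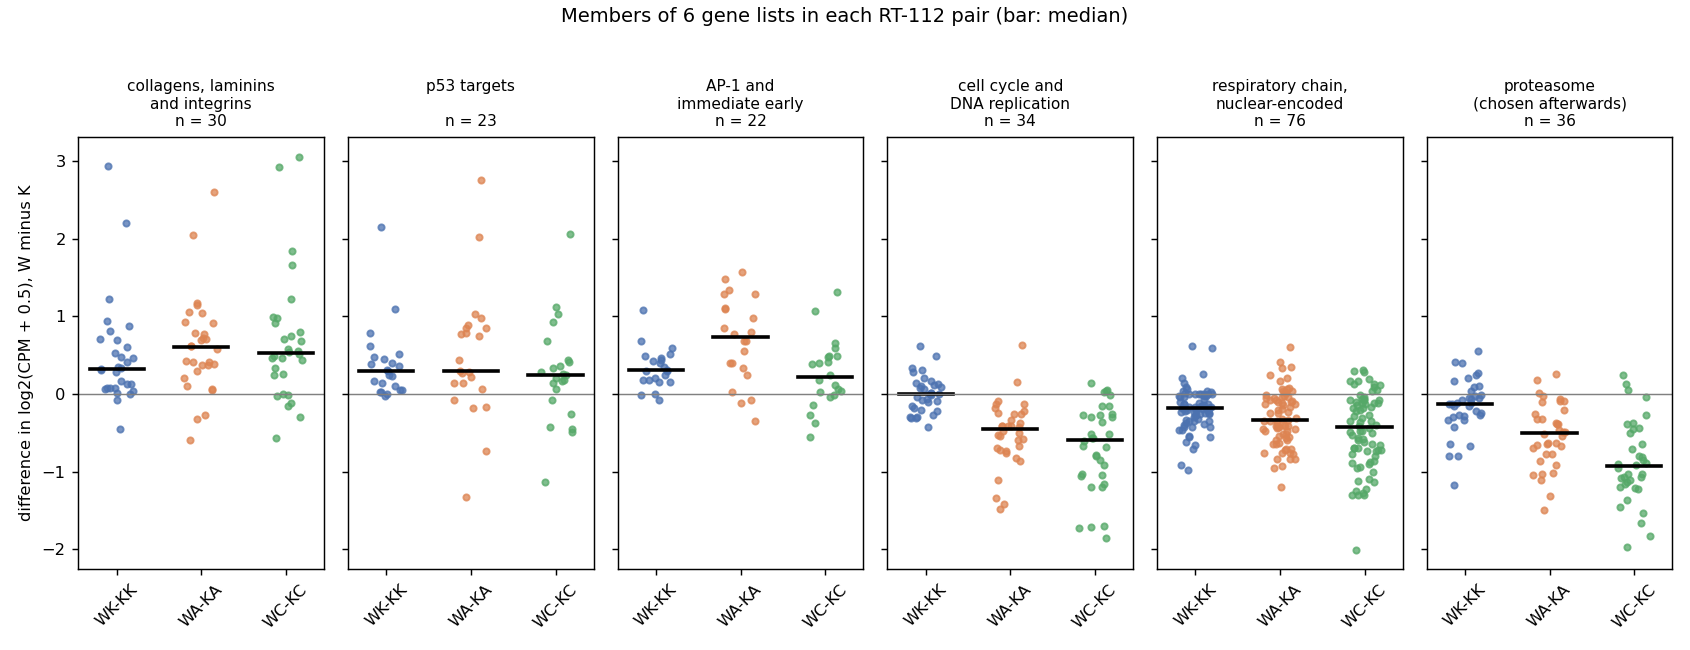
Difference in log2(CPM + 0.5) of W minus K (vertical axis) for each tested member of 6 gene lists in each of the 3 RT-112 pairs; a point is 1 gene and the bar the median. The median of the respiratory chain is below 0 in every pair, that of the cell cycle list is 0.00 in WK minus KK and -0.45 and -0.59 in the others, and that of the p53 targets is 0.25 to 0.30 in all.

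Urothelial genes did not share 1 direction. Luminal differentiation genes counted 8 higher and 2 lower of 22, and 10 and 4 without WA and KA, with FABP4, a fatty acid-binding protein, at 279, 539 and 96.4 CPM in K and 1306, 752 and 470 CPM in W, its groups overlapping. The uroplakin UPK3B was at 263, 201 and 193 CPM in K and 311, 264 and 255 CPM in W. ELF3, an epithelial ETS factor, was at 192, 145 and 188 CPM in K and at 204, 459 and 341 CPM in W, whereas the adhesion molecule EPCAM was at 47.8, 66.9 and 60.1 CPM and 38.3, 49.6 and 29.9 CPM. Few members with 1 direction were found in the lists of interferon-stimulated genes (2 higher and 2 lower of 16), S100 proteins (1 and 2 of 15), glycolysis and hypoxia (7 and 1 of 32), the ATF4 response (6 and 3 of 27), mucosal secreted proteins (2 and 1 of 12) and cholesterol and fatty acid synthesis (2 and 5 of 26). Without WA and KA these lists counted 2 and 5, 6 and 3, 10 and 2, 6 and 3, 3 and 2, and 2 and 13. Their counts also moved with the other pairs, as for glycolysis and hypoxia with 10 and 14 without WK and KK and for the ATF4 response with 14 and 3 without WC and KC. EMT and cadherin genes counted 4 and 2 of 13, tight junction genes 4 and 1 of 16, and cornified envelope genes 5 and 1 of 13. Hypoxia-induced CA9, a carbonic anhydrase, was at 0.83, 12.5 and 5.99 CPM in K and 4.57, 27.6 and 31.2 CPM in W, KK and WK being the lowest libraries of their groups.

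WWOX, the AP-2 factors and their cofactors counted 1 higher and 4 lower of 11, the higher one being the coactivator CITED4 at 34.2, 22.7 and 25.4 CPM in K and 40.5, 36.7 and 30.6 CPM in W. The 17 tested signalling genes that the study had followed counted 8 higher and 0 lower. With 5 CPM asked in at least 3 of the 6 libraries 13 were left, 4 higher and 0 lower. The study chose these genes on these samples, which is no independent evidence of their direction. The same holds for the 6 tested genes of blotted proteins, of which EFNA1 and FGFR3 were higher in 3 of 3 pairs. FGFR3, the receptor often activated in bladder cancer, was at 126, 111.96 and 123 CPM in K and 144, 114 and 156 CPM in W, with overlapping groups. GSK3B, PIK3CB, SOS1 and STAT6 had mixed signs, with log2 differences of -0.13, -0.05, 0.15 and -0.00.

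Chromosomes differed in their share of each direction. On chromosome 19, which is rich in genes and in GC, 260 of 752 tested genes were higher in 3 of 3 pairs and 71 lower (34.6% and 9.44%), with a median log2 difference of 0.11 that was between 0.10 and 0.15 in each pair. Chromosomes 22 and 17 followed with 27.9% and 24.8% higher, and chromosomes 21 and 14 had the largest shares of lower genes, 30.2% and 29.6%. No stretch was singled out, as no gene was called.

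Last, the 30 named genes were read in the other 2 lines, in which the same 6 combinations were made. The mean difference was positive for 12 of the 15 higher genes in HT-1376 cells and for 7 in CAL-29 cells, and 7 and 3 were higher in all 3 pairs there, where the background over the same 9267 genes was 22.5% and 14.5%. Of the 15 lower genes 6 and 4 had a negative mean difference and 3 and 2 were lower in all 3 pairs, the background being 32.7% and 10.1%. CCL22, RASA4 and OAF were higher in all 3 pairs of every line. C3 was at a log2 difference of 3.70 ± 0.64 (SE) in HT-1376 and 0.58 in CAL-29, while CDKN1A was at 0.76 and -0.35 and NOTCH1 at 0.14 and -0.20. On the lower side NASP was at -1.36 in HT-1376, with 1 sign in its 3 pairs, and -0.10 in CAL-29, whereas PIN4, PSMA3, PSMA2 and ATP5F1E had positive means in both. The library labelled CAL-29 KC resembles HT-1376 libraries, and without its pair 5 of the 15 higher genes were higher and 6 lower in the other 2 CAL-29 pairs, against a background of 27.6% and 18.4%, and of the 15 lower genes 2 were lower and 6 higher. Leaving out that pair for these counts was chosen after seeing the data.

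The differences between lines were tested in a limma fit over all 18 libraries and 13022 genes. No gene was called between RT-112 and HT-1376 or between RT-112 and CAL-29, with 1462 and 1299 genes at an unadjusted p under 0.05, and for the 30 named genes the smallest adjusted p was 0.235 against HT-1376 and 0.096 against CAL-29. This count of 0 depended on the libraries labelled CAL-29 WC and KC, which enter the spread shared by all lines. Without them 172 genes were called against HT-1376 and 10 against CAL-29. The CAL-29 values that follow include that pair. Over the 9267 genes the RT-112 differences correlated at r = 0.135 with those of HT-1376 and at -0.013 with those of CAL-29, as a description over genes. By direction, 509 of the 1760 higher genes were also higher in all 3 pairs of HT-1376 and 493 lower, and 578 of the 1984 lower genes were lower there and 465 higher. In CAL-29, 287 of the higher genes were higher in all 3 pairs and 204 lower, while of the lower genes 153 were lower and 283 higher. These counts are to be read against all 9267 genes. Of those, 2086 were higher (22.5%) and 3034 lower (32.7%) in all 3 pairs of HT-1376, and 1345 (14.5%) and 938 (10.1%) in CAL-29. The respiratory chain list had a median of 0.12 in HT-1376 and 0.10 in CAL-29 against -0.33 in RT-112, the collagen, laminin and integrin list 0.06 and 0.22 against 0.45, and the cell cycle list -0.61 and 0.31 against -0.36. The TGF-β list was positive in all 3 lines, at 0.20 and 0.79 against 0.26, but so were several other lists. Among them, the basal and squamous list was at 0.61 and 0.78 against 0.24, and the chemokine and IL-1 list at 1.24 and 1.00 against 0.43. The medians of all genes were -0.08 in HT-1376 and 0.04 in CAL-29. A test of the difference between lines was not made for lists.

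**Figure D5:**
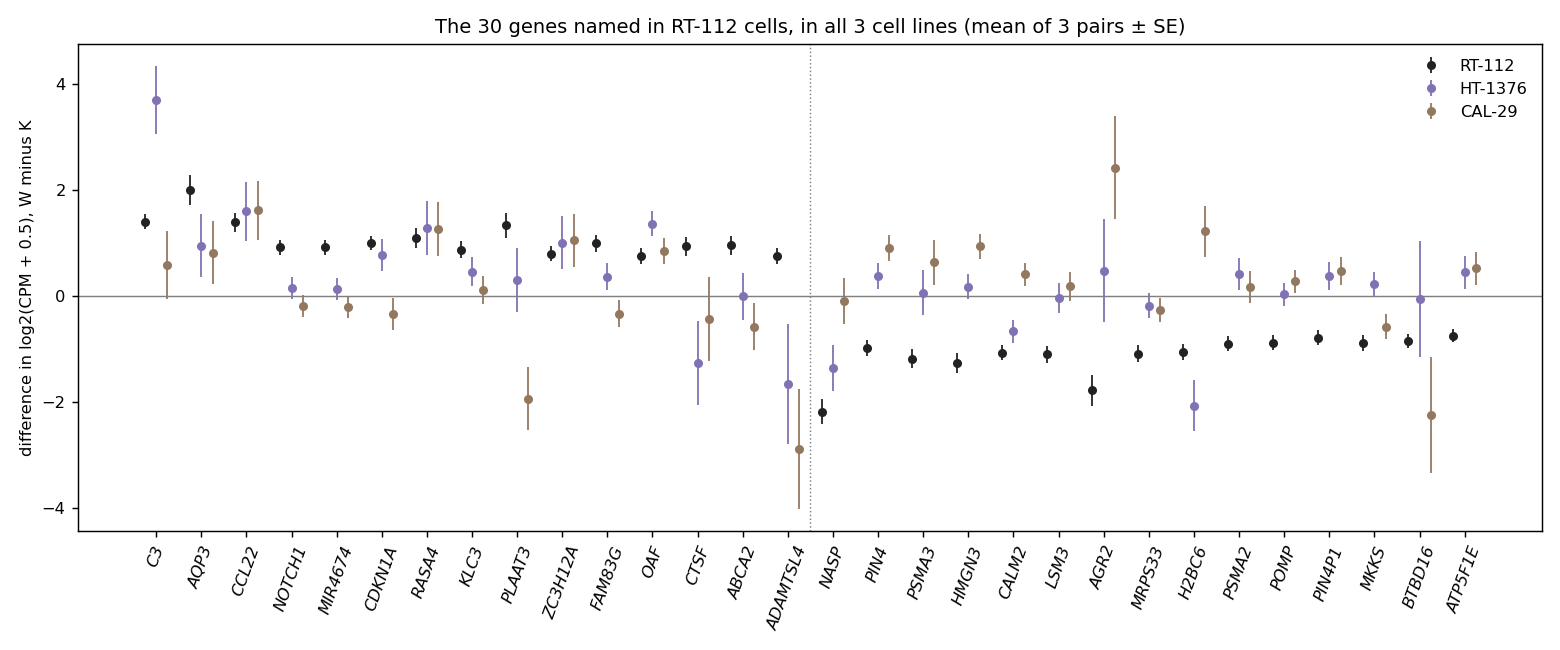
Difference in log2(CPM + 0.5) of W minus K (vertical axis) for the 30 named genes, 15 higher left of the dotted line and 15 lower right of it, as the mean of 3 pairs with its SE; RT-112 is from the fit on its 6 libraries, HT-1376 and CAL-29 from the fit on all 18. CCL22, RASA4 and OAF lie above 0 in all lines, and most lower genes of RT-112 lie at or above 0 in CAL-29.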

How the data were processed

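CAGE-seq levels of 6 RT-112 libraries were taken from the table the authors deposited, which holds CPM per gene for 18 libraries. According to the study's methods and the submitters' processing notes, reads were aligned to hg38 with BWA and then HISAT2 2.0.5, and tag clusters were called with RECLU and Paraclu. The annotation, the rule from clusters to genes and the total behind CPM are not given in the sources used here. The deposited CPM values of RT-112 are whole multiples of 1 read in 99.97% to 99.99% of cases (within rounding of the second decimal), which gave back read counts. The values of single-library files are the same and were not used separately. The libraries hold 15636025 to 17958572 reads on genes, so that 3 reads are worth 0.158 to 0.181 CPM.

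Genes reaching 5 CPM in 1 or more of the 6 libraries were kept (9267 of 16575), and log2(CPM + 0.5) was fitted with limma 3.58.1 (trend, second transduction as a block, Benjamini-Hochberg adjustment, R 4.3.3). Fold changes on this scale understate those of low genes. A call needs an adjusted p under 0.05 and the same sign in 3 of 3 pairs. Differences between lines came from a limma fit over 18 libraries (13022 genes). Alternatives were edgeR 4.0.16, DESeq2 1.42.0 and limma-voom on recovered reads, and those under the dependence on processing. RT-112 counts for 9267 genes were simulated with the dispersion estimated from the 6 libraries. On these the limma fit called 68 of 100 genes changed 2-fold, 100 of 100 changed 4-fold and 6 unchanged genes. For differences between lines, at a dispersion of 0.05, it called 19 of 100 genes changed 2-fold against HT-1376 and 17 against CAL-29. At 4-fold it called 90 of 100 against each line. Whether these shares hold for pairs as unequal as those of RT-112 was not tested. Pairs come from the second transduction in the labels. Deviations from group means correlated at 0.210, 0.200 and 0.023 in the pairs K, A and C. No 2 RT-112 libraries agreed within sampling noise (chi-square per degree of freedom at least 19.4).

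Named genes were WWOX, TFAP2A and TFAP2C, the 15 higher and 15 lower by the smallest pair difference (at least 20 CPM in the higher group), up to 2 per list by the same measure where fewer than 2 members were called, and chromosome counts. The pairs, the 35 lists and the rules were chosen with earlier results of these data known, and 3 lists later still. Of the tested genes, 287 share all 6 values with another gene. Gene positions, start sites and lengths come from GENCODE 44, which held 16553 of the genes. A further promoter window is not reported here.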

Additional observations from a re-analysis of the deposited data

Results flagged for a closer look

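Of the 30 genes named for their size in RT-112 cells, 3 had the opposite sign in 3 of 3 pairs of HT-1376 cells and 7 in 3 of 3 pairs of CAL-29 cells. The sign in RT-112 was fixed by the choice of these genes. The difference between the lines was tested in the limma fit over all 18 libraries, and it did not pass an adjusted p of 0.05 for any of them.

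Against HT-1376, the log2 difference of W minus K in RT-112 was above that of HT-1376 by 2.41 for ADAMTSL4 (0.74 and -1.67, adjusted p = 0.589) and by 2.2 for CTSF (0.93 and -1.27, adjusted p = 0.504). For MKKS the difference was -1.12 (-0.89, against 0.23, adjusted p = 0.294). Without the libraries labelled CAL-29 WC and KC, which changes the spread that all lines share, the adjusted p values from limma were 0.0241, 0.0874 and 0.0863 in the same order, so that ADAMTSL4 passed.

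Against CAL-29, PLAAT3 differed by 3.27 (1.33 in RT-112, against -1.95) and ADAMTSL4 by 3.64 (0.74 and -2.89). PIN4 differed by -1.88 (-0.98 and 0.9) and its copy PIN4P1 by -1.26. HMGN3 differed by -2.2 (-1.27 and 0.93), POMP by -1.16 (-0.88 and 0.28) and ATP5F1E by -1.27 (-0.76 and 0.52). The adjusted p values of these 7 genes in the limma fit were 0.096 to 0.491. The CAL-29 values include the library labelled KC, which resembles HT-1376 libraries, and without its pair none of the 7 passed either.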

How the results depend on the processing

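Of 14 alternatives to the limma fit, 6 that keep all 3 pairs left the count of called genes at 0: a pseudocount of 0.05 or 2 CPM, no filter, at least 5 CPM in 3 of the 6 libraries, the fit on all 18 libraries and limma-voom on recovered reads. TMM scaling, quantile normalization and edgeR called 4 genes each (3 higher, 1 lower), and DESeq2 called 351 (201 higher, 150 lower). Without the replicate block 1 gene was called, NASP (adjusted p = 0.0497), with 1769 instead of 1614 genes at an unadjusted p under 0.05; the second transduction gives the pairs, but deviations correlated over 0.1 in only 2 of the 3 pairs. Leaving out 1 pair gave 0 to 845 called genes. It gave 845 without WK and KK, which leaves the 2 libraries that resemble each other, 0 without WA and KA, and 5 without WC and KC (AQP3, BAALC, C3, NASP and VASN). The DESeq2 calls, 201 higher and 150 lower of 9267 genes, were spread over many lists. They held 7 of 30 collagens, laminins and integrins and 4 of 23 p53 targets, all higher, and 10 of 76 respiratory chain genes, all lower. Among other lists, 3 of 13 cornified envelope and 3 of 22 WNT pathway genes were called higher. Of 34 cell cycle genes 3 were called lower, and of 78 cytosolic ribosomal proteins 2 were called in each direction. The cause of the differences between alternatives was not tested.

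The 3744 genes with 1 direction became 5658 with no filter, which admits genes under 5 CPM, and 4864 to 6795 when 1 pair was left out, since 2 pairs then have to match instead of 3. Under the other alternatives they were 3471 to 3817. TMM scaling moved the median log2 difference of all genes by 0.03, and that of the pair WC and KC by 0.13. For differences between lines, 0 genes became 182 without the libraries labelled CAL-29 WC and KC (172 against HT-1376 and 10 against CAL-29, of which 4 are named genes, ADAMTSL4, STAT6, TIMP2 and TXN, each against HT-1376), 14 with a pseudocount of 2 CPM, 7 with edgeR and 1, CLEC2B, with TMM scaling.

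Among 1338 values of the 96 named genes under alternatives, 12 changed sign, 123 were called, and 1203 kept their sign and were not called, whatever their size. The changes of sign were as follows. TFAP2A ranged from -0.359 to 0.161, TFAP2C from -0.464 to 0.905 and SOS1 from -0.0771 to 0.295 when 1 pair was left out, the opposite sign arising without WA and KA. PIK3CB ranged from -0.17 to 0.078 when 1 pair was left out, and was 0.0314 with quantile normalization and 0.00267 with DESeq2. STAT6, whose value is close to 0, ranged from -0.0374 to 0.0337 and was 0.0252 with TMM scaling, 0.0502 with quantile normalization, 0.0275 with limma-voom and edgeR and 0.0441 with DESeq2.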
